A study of Mus musculus with 2 samples.

Results

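The genes described here are 40 genes of G2 and mitosis, chosen by name, each matched by its symbol to 1 row of a table of 27998 genes. The list holds the kinases and cyclins that start mitosis, carriers of the anaphase complex, the chromosomal passenger complex, centromere and kinetochore proteins, spindle proteins and motors, cytokinesis proteins and a few chromosome proteins. All 40 were found in the table and in GENCODE M21 (mm10), on 15 chromosomes. Overlaps were sought only with other genes of the table. None was found on a member's own strand, while 9 members (Ccna2, Ube2c, Nusap1, Kif20a, Kif22, Cdc20, Prc1, Sgol2a and Ckap2l) overlapped a gene on the opposite strand. Whether counting used the strand is not stated in the labels, so reads of such a neighbour could add to these 9. The expression of these genes was followed in single cells of the mouse thymus, where the study compared subsets of early thymic progenitors, the cells that enter the thymus and have not yet committed to the T lineage.

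All cells came from C57BL/6 mice of the genotype Bcl11b yfp/yfp. The labels give neither the number of animals nor their age. Every sort was Lin- 7AAD- Kit+, which takes live cells that lack lineage markers and carry the stem cell factor receptor. The 4 gated sorts were further CD25- and Bcl11b-: Flt3+ Ly6d- HSA- (1412 cells), Flt3+ HSA+ (1182 cells), Flt3- Ly6d- HSA- (1205 cells) and Flt3- Ly6d+ (847 cells). Flt3 is a cytokine receptor of early progenitors, Ly6d is a surface protein found on some lymphoid progenitors, and HSA is CD24. The gate Flt3+ HSA+ sets no Ly6d level and the gate Flt3- Ly6d+ sets no HSA level. The control was the Lin- 7AAD- Kit+ fraction with no further gate (3302 cells), labelled as ETP and DN2 cells, so it also holds later cells that have switched on CD25 and Bcl11b. Each population was 1 sort with its own hashtag, and all 5 were pooled into 1 library. There is thus 1 sample per population: no test between populations was possible, and every interval below covers counting error only.

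A cell that has copied its DNA passes through G2, in which the kinase Cdk1 and its cyclins are held ready, and then into mitosis, in which Cdk1 is active, chromosomes condense, kinetochores attach to the spindle and the anaphase complex destroys the cyclins. The RNAs of this machinery accumulate late in the cycle, under activators such as Foxm1 and B-Myb (Mybl2), and are held low in resting cells by a repressor complex that binds a short element named CHR. Early thymic progenitors divide several times before commitment, and the share of cells with these RNAs is often read as a sign of cycling.

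The promoters of these genes are shown because the members share letters there that the list did not use. Windows from 250 bases before to 50 bases after the start were available from RefSeq (GRCm38.p6) for 33 of the 40 members, 1 of them through a synonym. TTTGAA, the core of the CHR, searched on both strands, was present in 26 of 33 windows (78.8%), against 18.1% of 27025 promoters of the same length. CCAAT, the box bound by the factor NF-Y, also searched on both strands, was present in 29 of 33 (87.9%) against 37.9%. Neither motif contains the other, and on either strand their ends can overlap by at most 1 base. In the 100 bases before the start CCAAT was present in 26 of 33 members (78.8%, against 19.6% of all promoters) and TTTGAA in 8 (24.2%, against 5.91%). Both stood together in those 100 bases in 7 members (21.2%, against 1.08%). A match is a string of letters and not a shown binding site.

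Stretches of 150 bases before the start, 5′ to 3′ on the gene's strand, are printed for 7 members, those at the ends of the ranges below and a pair between them. Capitals mark TTTGAA or CCAAT on either strand (TTCAAA and ATTGG are the opposite strands). Top2a (chr11:99024190-99024339, minus strand) and Cdk1 (chr10:69352913-69353062, minus strand) hold both motifs. Ube2c (chr2:164769778-164769927, plus strand) also holds both, and Nusap1 (chr2:119618148-119618297, plus strand) neither; these 2 differed most between the sorts. Ccnb2 (chr9:70421555-70421704, minus strand), Cenpa (chr5:30666657-30666806, plus strand) and Kif23 (chr9:61946800-61946949, minus strand) hold CCAAT but no TTTGAA in the printed stretch. Each of them does hold TTTGAA elsewhere in its whole window. These members were among those that differed least. The stretch of Cenpa ends 80 bases and that of Ube2c 2 bases before the RefSeq start, and the other 5 end at the base before it.
Top2a: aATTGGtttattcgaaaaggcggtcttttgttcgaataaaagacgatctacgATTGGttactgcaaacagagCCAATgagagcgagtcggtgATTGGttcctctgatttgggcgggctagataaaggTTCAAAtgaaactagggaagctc
Cdk1: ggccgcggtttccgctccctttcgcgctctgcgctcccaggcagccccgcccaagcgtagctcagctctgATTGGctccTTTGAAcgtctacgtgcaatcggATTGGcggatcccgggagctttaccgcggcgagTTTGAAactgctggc
Ube2c: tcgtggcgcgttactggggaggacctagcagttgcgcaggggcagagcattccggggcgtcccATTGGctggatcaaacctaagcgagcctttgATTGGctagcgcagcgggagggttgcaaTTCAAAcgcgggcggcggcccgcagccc
Nusap1: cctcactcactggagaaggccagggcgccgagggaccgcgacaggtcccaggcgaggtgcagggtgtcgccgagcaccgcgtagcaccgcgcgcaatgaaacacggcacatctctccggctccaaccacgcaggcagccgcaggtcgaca
Ccnb2: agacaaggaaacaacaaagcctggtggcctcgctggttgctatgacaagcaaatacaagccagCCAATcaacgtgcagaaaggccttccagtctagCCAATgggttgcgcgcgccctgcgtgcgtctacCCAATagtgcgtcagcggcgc
Cenpa: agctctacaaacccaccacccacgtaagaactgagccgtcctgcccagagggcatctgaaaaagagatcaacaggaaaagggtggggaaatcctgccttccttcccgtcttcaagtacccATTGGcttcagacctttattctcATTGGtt
Kif23: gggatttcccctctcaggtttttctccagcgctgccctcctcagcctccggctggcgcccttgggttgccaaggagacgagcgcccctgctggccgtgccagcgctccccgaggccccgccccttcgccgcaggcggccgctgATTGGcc

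The positions below are those in the printed stretches only, and the whole windows hold further matches. In Top2a the TTTGAA match began 23 bases before the start and the CCAAT matches 149, 98, 78 and 58 bases before it. In Cdk1 the TTTGAA matches began 71 and 15 bases and the CCAAT matches 80 and 48 bases before the start. Ube2c had TTTGAA at 29 bases and CCAAT at 88 and 57 bases before the start, and Ccnb2 had CCAAT at 87, 54 and 21 bases. By difference between sorts Nusap1, with neither motif in its whole window, stood beside Ube2c, with both. Whether the letters go with that difference over the 33 members with a window was not tested.

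The depth behind the values was 24624463 UMIs in Flt3+ Ly6d- HSA-, 25619232 in Flt3+ HSA+, 14018324 in Flt3- Ly6d- HSA-, 10616041 in Flt3- Ly6d+ and 57199129 in the control, with medians of 9860 to 21151.5 UMIs per cell. All 12 early progenitor markers were at 5 CPM (UMIs scaled to 1000000 UMIs of the population) or more in every population. Of 8 markers of committed T cells 0 to 1 reached 5 CPM in the gated sorts and 8 did in the control. The RNA of 2 gate genes followed the labels: Flt3 was at 87.7 and 64.1 CPM in the Flt3+ sorts against 23.8 and 14.2 CPM in the Flt3- sorts, and Ly6d was at 431 CPM in Flt3- Ly6d+ against 11.3 to 17.5 CPM in the other gated sorts. Cd24a, which encodes HSA, was 1.77-fold higher in Flt3+ HSA+ than in Flt3+ Ly6d- HSA-. It was higher still in Flt3- Ly6d+, whose gate sets no HSA level. There it was 1.42-fold above Flt3+ HSA+ and 2.11-fold above Flt3- Ly6d- HSA-. Although all 4 gated sorts were CD25- and Bcl11b-, Il2ra RNA was at 0.569 and 2.07 CPM in the Flt3+ sorts against 9.20 CPM in Flt3- Ly6d- HSA- and 29.95 CPM in Flt3- Ly6d+, and Bcl11b RNA at 3.49 CPM in Flt3- Ly6d+ against 0.284 to 0.312 CPM in the others. Another cell type was present. Cells with a UMI of at least 7 of 14 granulocyte markers, called the granulocyte class, made up 4.67% of Flt3+ Ly6d- HSA-, 2.37% of Flt3+ HSA+, 8.13% of Flt3- Ly6d- HSA-, none of the 847 cells of Flt3- Ly6d+ (which allows a share of up to 0.354%) and 1.33% of the control. The class was read at full depth, so deeper cells reach it more easily. No cell barcode was shared between populations.

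The 40 genes together were most abundant in the Flt3+ HSA+ sort and least abundant in the Flt3- Ly6d- HSA- sort. Their summed level was 2881 CPM (2860 to 2902) in Flt3+ Ly6d- HSA-, 5092 CPM (5064 to 5120) in Flt3+ HSA+, 909 CPM (893 to 925) in Flt3- Ly6d- HSA-, 1291 CPM (1270 to 1313) in Flt3- Ly6d+ and 3549.8 CPM (3534 to 3565) in the control. As a share of all RNA this is 0.509% in the highest population and 0.0909% in the lowest. Flt3+ HSA+ was the highest of the 5 populations for all 40 genes, and its 95% Poisson interval lay above those of the other 4 each time. Flt3- Ly6d- HSA- was the lowest for 37 genes, and Flt3- Ly6d+ for the other 3, Ccnb2, Cenpa and Cdca3. The control lay above Flt3+ Ly6d- HSA- for 35 genes and below it for 5, and the intervals of these populations overlapped for 7. No share over all genes is given beside these counts of order and overlap, so they describe the 40 genes only.

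**Figure D1:**
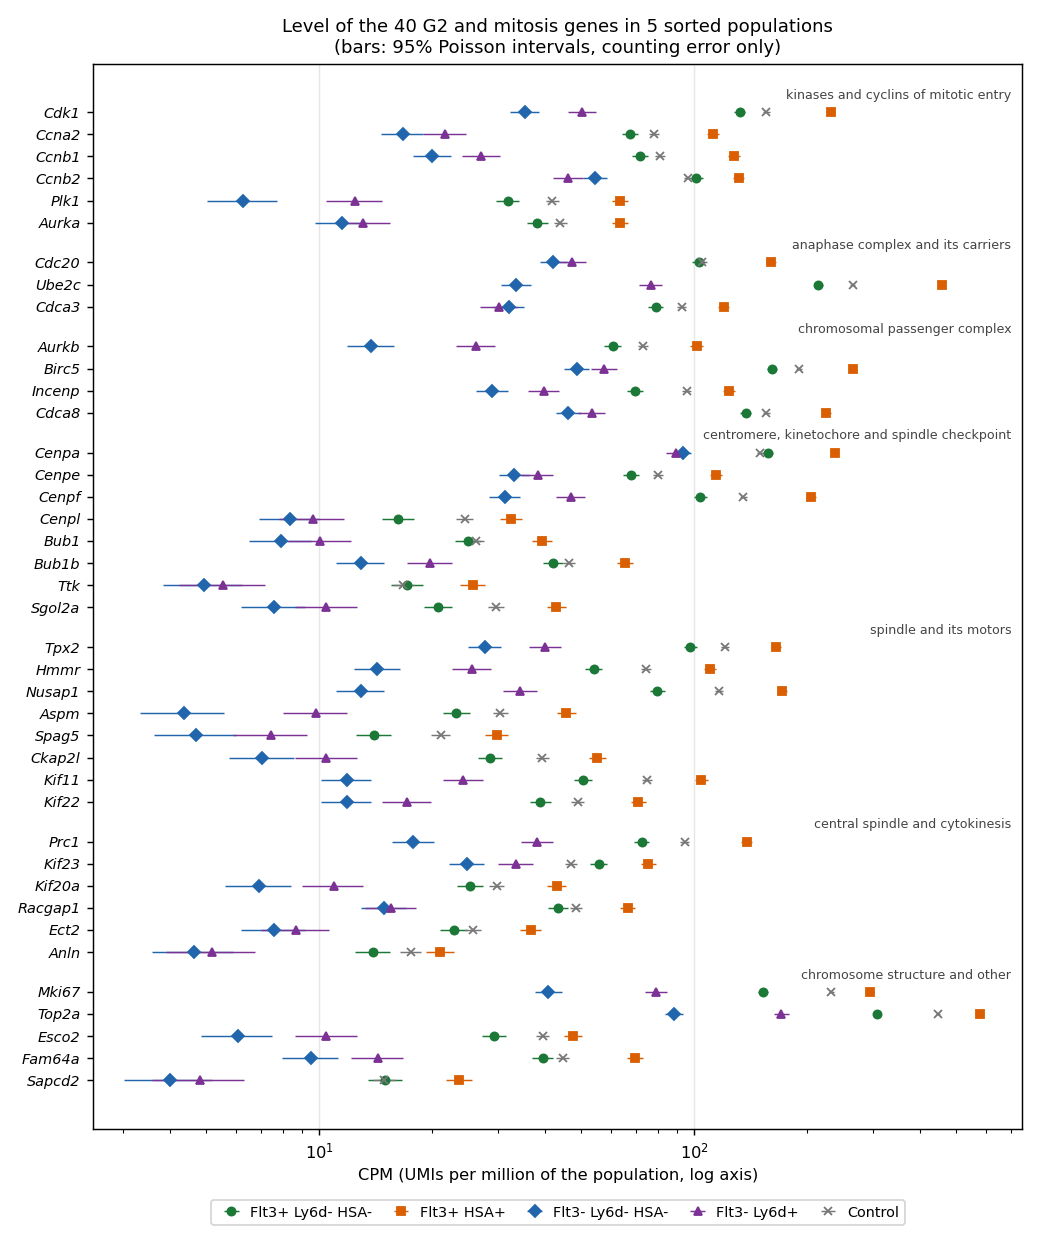
Level of each of the 40 genes in the 5 sorted populations, in CPM on a log axis, grouped by role, with bars for 95% Poisson intervals (counting error only). Flt3+ HSA+ lies rightmost for all 40 genes, up to 577 CPM for Top2a, and Flt3- Ly6d- HSA- lies leftmost for 37.

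Among the kinases and cyclins of mitotic entry, Cdk1, the kinase that drives mitosis, was at 132 CPM in Flt3+ Ly6d- HSA-, 232 in Flt3+ HSA+, 35.3 in Flt3- Ly6d- HSA-, 50.2 in Flt3- Ly6d+ and 156 in the control. Its partner Ccnb1, cyclin B1, was at 71.8, 128, 20.0, 27.0 and 81.0 CPM in the same order. Both genes were highest in Flt3+ HSA+ and low in the 2 Flt3- sorts. Ccnb2, cyclin B2, was at 101, 131, 54.4, 46.2 and 96.3 CPM, a narrower range than that of Ccnb1. Ccna2, cyclin A2, which acts from S phase into early mitosis, was at 67.5, 112, 16.7, 21.7 and 78.2 CPM. Plk1, a kinase of mitotic entry and of later steps, was at 31.8, 63.6, 6.28, 12.4 and 41.8 CPM. Aurka, the centrosome kinase that activates Plk1, was at 38.1, 63.3, 11.5, 13.1 and 44.0 CPM.

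Of the anaphase complex and its carriers, Ube2c, the ubiquitin carrier that feeds the complex, had a wide range. It was at 214 CPM in Flt3+ Ly6d- HSA-, 458 in Flt3+ HSA+, 33.5 in Flt3- Ly6d- HSA-, 76.6 in Flt3- Ly6d+ and 264 in the control. Cdc20, an activator of the complex and target of the spindle checkpoint, was at 103, 160, 42.2, 47.1 and 105 CPM. The sorts kept the same order for both genes, with a smaller span for Cdc20. In the chromosomal passenger complex, which corrects attachments and guides cytokinesis, the kinase Aurkb was at 60.6, 101, 13.8, 26.2 and 73.1 CPM. Its scaffold Incenp was at 69.6, 124, 29.0, 39.8 and 95.5 CPM, and the partners Birc5 (survivin) and Cdca8 (borealin) ran from 48.7 and 46.2 CPM in Flt3- Ly6d- HSA- to 265 and 225 CPM in Flt3+ HSA+.

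At the centromere, Cenpa, the histone H3 variant that marks it, was at 157 CPM in Flt3+ Ly6d- HSA-, 237 in Flt3+ HSA+, 93.1 in Flt3- Ly6d- HSA-, 89.6 in Flt3- Ly6d+ and 149.9 in the control, and thus varied little beside Ube2c. Cenpe, a kinetochore motor, was at 67.8, 114, 33.2, 38.2 and 80.1 CPM, and Cenpf, a large kinetochore protein, at 104, 205, 31.3, 46.8 and 135 CPM. Of the checkpoint and cohesion genes, Bub1, Bub1b, Ttk and Sgol2a, the first 3 of them checkpoint kinases or kinase-like proteins and Sgol2a a protector of centromeric cohesion, lay between 4.92 and 12.9 CPM in Flt3- Ly6d- HSA- and between 25.7 and 65.5 CPM in Flt3+ HSA+. The control lay below Flt3+ Ly6d- HSA- for Ttk (16.8 against 17.2 CPM) and Cenpa and above it for the others of this paragraph.

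Of the spindle genes, Nusap1, which bundles microtubules near chromosomes, was at 79.8 CPM in Flt3+ Ly6d- HSA-, 171 in Flt3+ HSA+, 12.9 in Flt3- Ly6d- HSA-, 34.4 in Flt3- Ly6d+ and 116 in the control. Tpx2, which activates Aurka on the spindle, was at 97.5, 166, 27.6, 40.03 and 121 CPM. Kif11, the motor that pushes spindle poles apart, was at 50.5, 104, 11.8, 24.2 and 74.8 CPM. Each was higher in Flt3- Ly6d+ than in Flt3- Ly6d- HSA-, with intervals apart, though these intervals leave out how UMIs cluster in cells. Of the cytokinesis genes, Prc1, which bundles the central spindle, was at 72.4, 138, 17.8, 38.1 and 94.2 CPM. Kif23, the motor of the centralspindlin complex, was at 55.6, 75.5, 24.8, 33.4 and 46.9 CPM, and stood apart from Prc1 in its small span. Of the chromosome genes, Mki67, which coats mitotic chromosomes and is the Ki-67 antigen, was at 153, 294, 40.9, 79.0 and 232 CPM. Top2a, the topoisomerase that untangles sister chromatids, was at 308, 577, 88.5, 170.5 and 447 CPM.

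The remaining members kept to the same range of patterns. Of the spindle genes, Hmmr, Aspm, Spag5, Ckap2l and Kif22, a chromosome motor, lay between 4.35 CPM (Aspm) and 14.3 CPM (Hmmr) in Flt3- Ly6d- HSA- and between 29.7 CPM (Spag5) and 110.4 CPM (Hmmr) in Flt3+ HSA+. Of the cytokinesis genes, Kif20a, a motor of the central spindle, was at 25.2 CPM in Flt3+ Ly6d- HSA-, 43.0 in Flt3+ HSA+, 6.92 in Flt3- Ly6d- HSA-, 10.9 in Flt3- Ly6d+ and 29.7 in the control. Racgap1, the partner of Kif23 in centralspindlin, was at 43.3, 66.4, 14.9, 15.5 and 48.3 CPM, so the subunits of this complex differed in their span. Ect2 ran from 7.56 CPM in Flt3- Ly6d- HSA- to 36.6 CPM in Flt3+ HSA+, and Anln was at 4.64 CPM in Flt3- Ly6d- HSA- and 13.9 CPM in Flt3+ Ly6d- HSA-. Cdca3, an F-box protein of mitotic entry, was at 78.9, 119.8, 32.0, 30.1 and 92.5 CPM, and Cenpl, a protein of the inner kinetochore, at 16.2, 32.6, 8.35, 9.61 and 24.4 CPM. Esco2, Fam64a and Sapcd2 lay between 3.99 and 9.49 CPM in Flt3- Ly6d- HSA- and between 23.6 and 69.6 CPM in Flt3+ HSA+.

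The first comparison asked how the loss of Flt3 goes with these genes within HSA- Ly6d- progenitors. In Flt3- Ly6d- HSA- every one of the 40 lay below its level in Flt3+ Ly6d- HSA- by 1.5-fold or more, against 4.59% of the 9210 genes that reached 5 CPM in either population. Their median was 3.40-fold lower, while the median log2 ratio of all genes was 0.03. The smallest differences were those of Cenpa (1.69-fold lower, 95% interval 1.58 to 1.80) and Ccnb2 (1.86-fold, 1.72 to 2.02), and the largest those of Ube2c (6.39-fold, 5.81 to 7.04) and Nusap1 (6.18-fold, 5.31 to 7.24). The summed level was 3.17-fold lower (3.11 to 3.23). By role, the summed level of the centromere and kinetochore genes was 0.443 times that of Flt3+ Ly6d- HSA-, of the spindle genes 0.245 times, and of the other 5 groups 0.272 to 0.328 times.

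Markers of other cell types moved with this comparison. Summed mast cell and basophil markers were at 74.2 CPM in Flt3- Ly6d- HSA- against 10.48 CPM in Flt3+ Ly6d- HSA-, with 3 and 1 of 8 at 5 CPM or more, and their part in the result was not tested. Summed granulocyte markers were at 4467 against 3144 CPM. Granulocyte-class cells held 35.1% of all UMIs of the 40 genes in Flt3- Ly6d- HSA-, 12.6% in Flt3+ Ly6d- HSA-, 4.33% in Flt3+ HSA+ and 2.67% in the control. Without them, all 40 genes passed 1.5-fold as before, against 6.25% of all genes, and the median was 4.26-fold lower.

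The second comparison asked what HSA adds within the Flt3+ cells. In Flt3+ HSA+ 37 of the 40 genes were at least 1.5-fold higher than in Flt3+ Ly6d- HSA-, against 2.05% of 9066 genes, and 7 were at least 2-fold higher, against 0.331%. The 3 below 1.5-fold were Ccnb2 (1.30-fold, 1.23 to 1.37), Kif23 (1.36-fold, 1.27 to 1.46) and Ttk (just under 1.5-fold, 1.32 to 1.69). The highest ratios were those of Nusap1 (2.15-fold, 2.04 to 2.27), Ube2c (2.14-fold, 2.07 to 2.21) and Spag5, a spindle protein (2.13-fold, 1.87 to 2.43). The median ratio was 1.70, the summed ratio 1.77 (1.75 to 1.78), and the median log2 ratio of all genes -0.00. Both this and the first comparison use Flt3+ Ly6d- HSA- as the reference, so their values are not independent. Dendritic cell markers, summed, were at 117 CPM in Flt3+ HSA+ and 47.2 CPM in Flt3+ Ly6d- HSA-, with 5 and 3 of 8 at 5 CPM or more, and their part in the result was not tested.

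Next, the comparison of the Flt3- sorts set Flt3- Ly6d+ against Flt3- Ly6d- HSA-. These gates differ in Ly6d and in HSA, which only the latter sets, and Cd24a RNA was 2.11-fold higher in Flt3- Ly6d+. Here 39 members reached 5 CPM in either population, Sapcd2 being the one below it, and 15 of the 39 were at least 1.5-fold higher, against 1.75% of 9178 genes. None was 1.5-fold lower. Nusap1 (2.66-fold, 2.22 to 3.20), Ube2c (2.28-fold, 2.04 to 2.56), Aspm, a spindle pole protein (2.25-fold, 1.63 to 3.14), and Prc1 (2.14-fold, 1.82 to 2.51) were highest. Ccnb2 (0.848, 0.756 to 0.951), Cdca3 (0.941, 0.813 to 1.09) and Cenpa (0.962, 0.884 to 1.05) had ratios below 1, and only the interval of Ccnb2 excluded 1 among these 3. Without the granulocyte class the ratios of Ccnb2 and Cenpa were 1.02 and 1.04. For 16 members the Poisson intervals of the 2 populations overlapped, a count given without a share over all genes. The summed ratio was 1.42 (1.39 to 1.46). The count changed when either of 2 groups of cells was left out. Without the granulocyte class, which is absent from Flt3- Ly6d+, 30 members were at least 1.5-fold higher (2.48% of all genes) and the summed ratio was 1.75. Without the 5% of cells with most UMIs in each population, 5 of the 36 that reached 5 CPM were (1.29% of all genes), the summed ratio was 1.18, and 8 members changed sides of 1. Mast cell and basophil markers, summed, were at 8.20 CPM in Flt3- Ly6d+ and 74.2 CPM in Flt3- Ly6d- HSA-, with 1 and 3 of 8 at 5 CPM or more, and their part in the result was not tested.

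The gates of the fourth comparison differ in Flt3, in HSA, which only Flt3+ HSA+ sets, and in Ly6d, which only Flt3- Ly6d+ sets. Cd24a RNA was 1.42-fold higher in Flt3- Ly6d+, the sort without an HSA gate. All 40 genes stood lower in Flt3- Ly6d+ than in Flt3+ HSA+ by 1.5-fold or more, against 7.31% of 9236 genes. The median was 4.18-fold lower and the summed level 3.94-fold lower (3.87 to 4.01). Differences ran from 2.26-fold (2.01 to 2.54) for Kif23 to 5.99-fold (5.57 to 6.43) for Ube2c. Ckap2l, a spindle protein, was 5.27-fold (4.35 to 6.46) and Ccna2 5.17-fold (4.52 to 5.94) lower. The granulocyte class had no cell in Flt3- Ly6d+ and held 4.33% of the members' UMIs in Flt3+ HSA+. Without this class all 40 were at least 1.5-fold lower, against 6.79% of all genes, with a median of 4.21-fold. Without the 5% deepest cells the median was 6.49-fold. Dendritic cell markers were at 60.6 CPM in Flt3- Ly6d+ against 117 CPM in Flt3+ HSA+, with 5 of 8 at 5 CPM or more in each, and their part in the result was not tested. This comparison shares Flt3+ HSA+ with one comparison above and Flt3- Ly6d+ with another, and the comparison before it shares Flt3- Ly6d- HSA- with the first.

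The control was set against the unweighted mean of the 4 gated sorts. Of the 40 genes 8 were at least 1.5-fold higher, against 3.57% of 9206 genes, and none was 1.5-fold lower. They were Esco2, the acetyltransferase that locks cohesin on replicated DNA (1.69-fold, 1.59 to 1.80), Mki67 (1.64-fold, 1.60 to 1.68), Anln, an actin binder of the cleavage furrow (1.57-fold), Kif11 (1.57-fold), Top2a (1.56-fold), Nusap1 (1.56-fold), Ckap2l (1.56-fold) and Spag5 (1.51-fold). The lowest ratio was that of Kif23 (0.991, 0.942 to 1.04). Most ratios lay near the threshold, with a median of 1.41, and the count moved with the weighting of cells. When every cell had equal weight 1 gene passed (3.67% of all genes), and 2 did when every cell was thinned to 3000 UMIs (4.32%). Both counts are near the share of all genes. Without the granulocyte class 14 passed (4.07% of all genes).

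Within the control, cells were divided by the RNA that marks the passage to DN2 and commitment. Of 1700 cells with no UMI of Il2ra (CD25) or Bcl11b among 3000 UMIs, 32.2% (30.02 to 34.5) held at least 5 UMIs of the 40 genes, the count that defines a high cell below. The share was 28.9% (25.4 to 32.7) of 622 cells with Il2ra alone, 38.9% (34.0 to 43.9) of 386 cells with Bcl11b alone and 29.2% (25.4 to 33.2) of 542 cells with both. These binomial intervals overlap except that Bcl11b alone lies above Il2ra alone and above both. A cell without a UMI of Il2ra or Bcl11b at this depth may still express them, so the 4 classes mix.

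Seen cell by cell, the RNA of these genes was concentrated in a minority of cells in every population but Flt3+ HSA+. Every cell was thinned to 3000 UMIs, and the 7, 6, 45, 21 and 52 shallower cells of the 5 populations were left out. A cell with at least 5 UMIs of the 40 genes among 3000 is called a high cell. High cells were 31.9% (448 cells, 95% exact binomial interval 29.5 to 34.4) of Flt3+ Ly6d- HSA-, 56.0% (659 cells, 53.1 to 58.9) of Flt3+ HSA+, 9.66% (112 cells, 8.02 to 11.5) of Flt3- Ly6d- HSA-, 11.1% (92 cells, 9.07 to 13.5) of Flt3- Ly6d+ and 31.9% (1036 cells, 30.3 to 33.5) of the control. The intervals of the Flt3- sorts overlap each other and lie far below both Flt3+ sorts. Without thinning, cells with 5 or more such UMIs were 59.8%, 78.9%, 26.9%, 29.3% and 54.2%. High cells held 88.4%, 95.6%, 63.8%, 74.2% and 91.1% of the members' thinned UMIs in the same order.

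**Figure D2:**
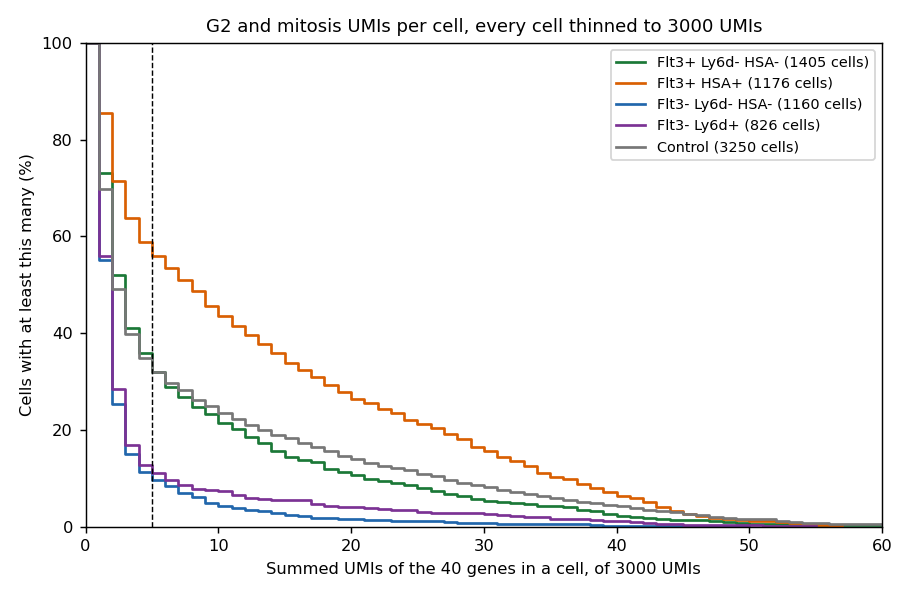
Share of cells (%) with at least the given number of UMIs of the 40 genes, every cell thinned to 3000 UMIs, 1 line per population, with a dashed line at 5 UMIs. At 5 UMIs the lines stand at 56.0% for Flt3+ HSA+, 31.9% for both Flt3+ Ly6d- HSA- and the control, 11.1% for Flt3- Ly6d+ and 9.66% for Flt3- Ly6d- HSA-.

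Cells lay on both sides of the cut of 5 UMIs, and 202, 150, 93, 68 and 376 cells of the 5 populations held 3 to 6 of them. Counting noise at this depth spreads cells around the cut, so these counts cannot tell a continuous range from separate groups. The median cell held 2, 7, 1, 1 and 1 UMIs and the cell at the 90th percentile 20, 35, 4, 5 and 26. At full depth the members' share of the median cell's UMIs was 0.0475%, 0.231%, 0.0247%, 0.0230% and 0.0414%, so the median control cell stood above those of the Flt3- sorts. Cells with 20 UMIs or more were 10.7%, 26.4%, 1.55%, 3.87% and 13.97%. High cells were also deeper before thinning, with medians of 22666, 24926, 17808, 19947.5 and 24733 UMIs against 12421.5, 13999, 9193, 10749 and 11704 UMIs in cells with none of these UMIs. Doublets within a hashtag were not called, and their part in the high cells was not tested.

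Among granulocyte-class cells, high cells made up 69.7% (57.1 to 80.4) of 66 in Flt3+ Ly6d- HSA-, 82.1% (63.1 to 93.9) of 28 in Flt3+ HSA+, 41.8% (31.9 to 52.2) of 98 in Flt3- Ly6d- HSA- and 59.1% (43.2 to 73.7) of 44 in the control. Among all other cells the shares were 30.02%, 55.4%, 6.69% and 31.5%. In Flt3- Ly6d- HSA- 41 of the 112 high cells belonged to the class. Its remaining share of 6.69% (5.26 to 8.36) lay below the 11.1% (9.07 to 13.5) of Flt3- Ly6d+, with intervals apart, whereas over all cells they overlapped.

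**Figure D3:**
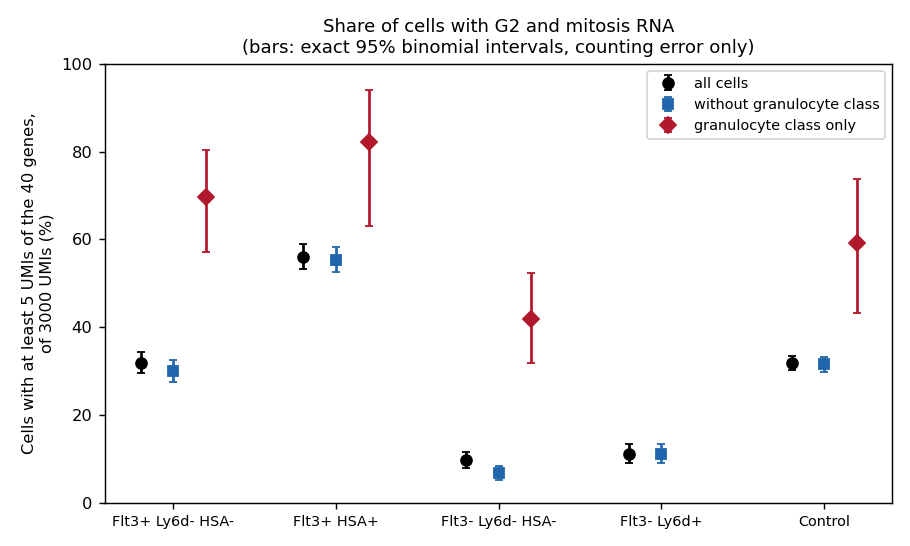
Share of high cells (%, at least 5 UMIs of the 40 genes among 3000) in each population, over all cells, without the granulocyte class and within it, with exact 95% binomial intervals (counting error only). Within the class the share is 41.8% to 82.1%, and it drops from 9.66% to 6.69% in Flt3- Ly6d- HSA- when the class is left out.

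How far each gene is tied to the rest was measured by leaving it out: cells were chosen by the other 39 genes, and the gene itself was read in cells with 0 and with at least 5 of their UMIs. For the median member the level in the former was 3.12%, 1.99%, 3.29%, 2.34% and 2.01% of that in the latter across the 5 populations. Hmmr, a spindle and hyaluronan-binding protein, had no UMI in the cells with 0 of the others in 4 populations and 1 UMI in Flt3- Ly6d+, with upper 95% limits of 1.25 to 7.19 CPM, against 71.4 to 156 CPM in high cells. Plk1 had 0 to 2 UMIs there, and Ube2c 1.94 to 6.01 CPM against 159 to 630.2 CPM.

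Kif23 departed from this pattern in every population. In cells with none of the other 39 it was at 41.3, 46.2, 28.3, 23.8 and 19.9 CPM, which is 50.4%, 51.3%, 46.7%, 26.0% and 24.7% of its level in high cells. Only Cenpl in Flt3- Ly6d- HSA- had a higher value (68.2%), from 13 and 4 UMIs. Cenpa stood at 36.8 to 42.5 CPM in such cells in all 5 populations, with overlapping intervals, against 304 to 382 CPM in high cells. Incenp was at 14.9 to 22.0 CPM and Top2a at 24.96 to 61.8 CPM. Kif23 and Cenpa are also 2 of the members that differed least between the sorts. The part of RNA free in the droplets was not tested, since no sorted type lacks these genes. Ube2c, with 33.5 to 458 CPM over all cells, stayed at 6.01 CPM or below in the same cells.

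**Figure D4:**
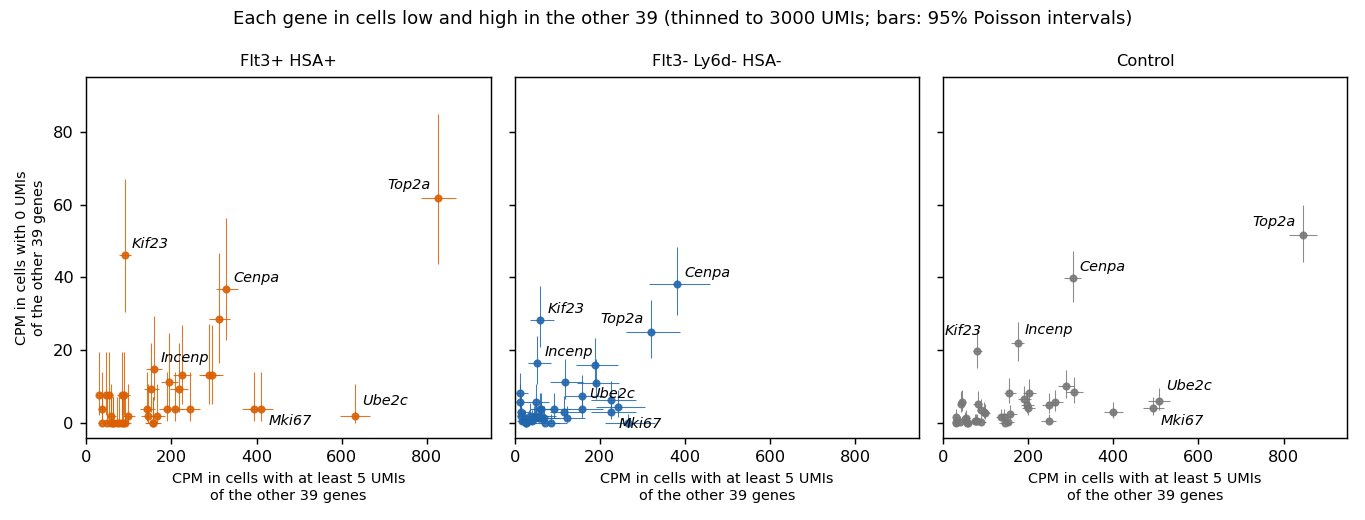
Level of each gene (CPM, thinned cells) in cells with 0 UMIs of the other 39 genes (y axis) against its level in cells with at least 5 of them (x axis), for 3 populations, with 95% Poisson intervals on both axes. Kif23 stands high on the y axis for its level on the x axis (46.2 against 89.9 CPM in Flt3+ HSA+), while Ube2c lies near 0 (1.94 against 630.2 CPM).

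The same leave-one-out reading gives each gene's ratio among high cells of 2 sorts. Choosing cells by genes that go together with the one measured can by itself draw such ratios towards 1. The values therefore describe the chosen cells and are no measure of how much of a difference lies within them. Between Flt3- Ly6d- HSA- and Flt3+ Ly6d- HSA- the median ratio among high cells was 0.593, and over all thinned cells 0.246. It ran from 0.251 (0.0663 to 0.673) for Ect2, an activator of the cytokinesis GTPase RhoA, to 1.29 (0.954 to 1.73) for Cenpe. Ube2c (0.378, 0.279 to 0.501), Nusap1 (0.362, 0.220 to 0.567) and Top2a (0.536, 0.432 to 0.659) were lower in the high cells of the Flt3- sort too. Cenpa (1.19, 0.964 to 1.47) and Ccnb2 (1.05, 0.805 to 1.36) had intervals that include 1. Without the granulocyte class the median was 0.685. Between Flt3+ HSA+ and Flt3+ Ly6d- HSA- the median among high cells was 1.16, and over all thinned cells 1.93, with a range from 0.906 (Ccnb2) to 1.85 (Cenpl, 1.23 to 2.84). Between Flt3- Ly6d+ and Flt3- Ly6d- HSA- the median among high cells was 1.49, and over all thinned cells 1.33, so it lay further from 1 among high cells. Without the granulocyte class the median among high cells was 1.22. Between Flt3- Ly6d+ and Flt3+ HSA+ it was 0.808, and over all thinned cells 0.206.

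**Figure D5:**
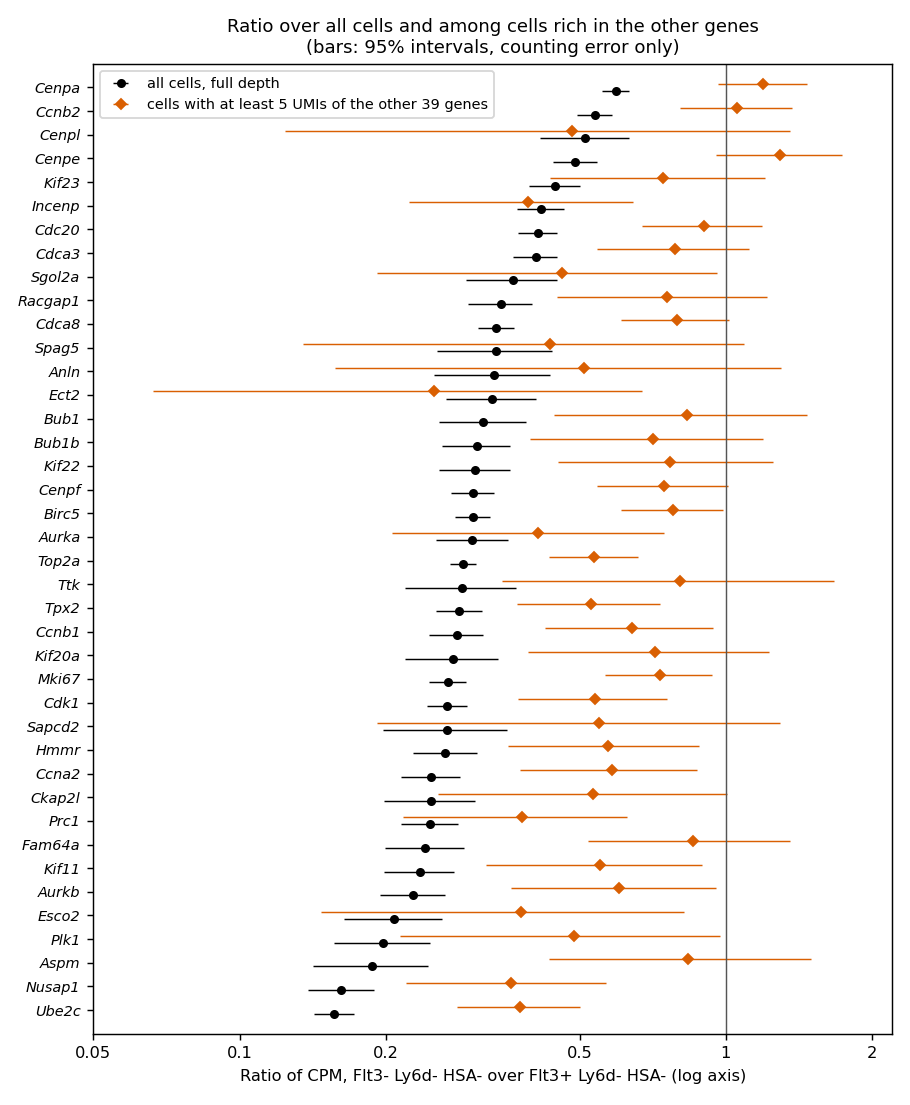
Ratio of CPM in Flt3- Ly6d- HSA- over Flt3+ Ly6d- HSA- for each gene (log axis), over all cells at full depth and among thinned cells with at least 5 UMIs of the other 39 genes, with 95% intervals (counting error only). Over all cells every ratio lies between 0.157 and 0.593. Among high cells, whose choice by the other genes can draw ratios towards 1, they run from 0.251 to 1.29.

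The members were further divided by their place in the cycle, 6 early ones (Ccna2, Esco2, Top2a, Cdk1, Kif22 and Kif11) and 8 late ones (Ccnb1, Cdc20, Plk1, Aurka, Cenpa, Cenpe, Hmmr and Kif20a). Late over early UMIs in thinned cells were 0.931 (0.872 to 0.994) in Flt3+ Ly6d- HSA-, 0.782 (0.743 to 0.823) in Flt3+ HSA+, 1.58 (1.39 to 1.80) in Flt3- Ly6d- HSA-, 0.926 (0.815 to 1.05) in Flt3- Ly6d+ and 0.743 (0.713 to 0.773) in the control. Flt3- Ly6d- HSA- had the highest ratio, and its interval lay apart from the others. It was also the highest among high cells, where its ratio was 1.58 (1.34 to 1.88) and the others were 0.743 to 0.965, and at full depth, where it was 1.34 against 0.718 to 0.897. Without the granulocyte class its ratio was 1.81 in thinned cells and 1.58 (1.48 to 1.69) at full depth. Without the 5% deepest cells the ratio of Flt3- Ly6d+ also passed 1, at 1.07. The size of the ratio of Flt3- Ly6d- HSA- rested on Cenpa. The thinned cells of that sort held 603 late UMIs with Cenpa and 330 without it, against 381 early UMIs. With Cenpa left out, an alternative added after the values were seen, the ratio was 0.866 (0.745 to 1.01), against 0.644 in Flt3+ Ly6d- HSA-, 0.575 in Flt3+ HSA+, 0.549 in Flt3- Ly6d+ and 0.528 in the control. It was thus below 1 but still the highest, with intervals apart in thinned cells.

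Genes of the same machinery outside the 40 were read from 6 further lists of 76 genes and set beside S phase genes. Of all genes, 4.59% were at least 1.5-fold lower in the first comparison, or 6.25% without the granulocyte class. In the first comparison, 13 of 16 other kinetochore genes, 16 of 17 other spindle motor and tubulin genes, 8 of 10 genes of the mitotic entry switch, 6 of 11 condensin and cohesin genes, 3 of 6 transcription factors of the cycle and 3 of 12 anaphase complex and exit genes were at least 1.5-fold lower, and none was higher. Spc25, a subunit of the Ndc80 complex that holds microtubules, was at 9.13 against 36.5 CPM. Foxm1, the activator of many of these genes, was at 2.78 against 10.2 CPM. By contrast Numa1, a spindle pole protein, had a ratio of 1.08, and Pttg1 (securin), which holds back the protease that cuts cohesin, of 1.26. The subunits of the anaphase complex stayed between 0.804 (Anapc5) and 1.005 (Cdc26). The 24 S phase genes had a median log2 ratio of -0.68, against -1.76 for the 40 members, and 14 of them passed 1.5-fold, or 23 without the granulocyte class.

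In the second comparison 9 of 16 kinetochore genes, 13 of 18 spindle motor and tubulin genes, 5 of 10 of the entry switch, 4 of 11 condensin and cohesin, 3 of 7 transcription and 2 of 12 anaphase and exit genes were at least 1.5-fold higher, and none was lower. Of all genes, 2.05% were at least 1.5-fold higher in this comparison. Kif14, a cytokinesis motor, was at 17.8 against 7.59 CPM (ratio 2.35). Cdc25b, the phosphatase that helps to switch on Cdk1, was at 20.0 against 9.75 CPM (ratio 2.05). None of 24 S phase genes reached 1.5-fold, with a median log2 ratio of 0.15 against 0.77 for the members. The gap between Flt3+ HSA+ and Flt3+ Ly6d- HSA- was thus larger in G2 and mitosis genes than in S phase genes, in levels from 1 sort each. Of cells with no UMI of the 40 genes among 3000, those with 3 or more S phase UMIs were 76.0% in Flt3+ HSA+ and 66.4% in Flt3+ Ly6d- HSA-, against 45.9% and 47.0% in the Flt3- sorts.

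The same lists were read in the other comparisons. Of all genes, 1.75% were at least 1.5-fold higher and 2.47% lower between the Flt3- sorts. Without the granulocyte class 2.48% were higher. In the fourth comparison 7.31% of all genes were at least 1.5-fold lower, and in the control 3.57% were higher. A single gene of a short list is too few to set against these shares. Between Flt3- Ly6d+ and Flt3- Ly6d- HSA-, 3 of 16 kinetochore genes, 4 of 16 spindle motor and tubulin genes, 2 of 11 condensin and cohesin genes, 1 of 8 entry switch genes, 1 of 11 anaphase and exit genes and 0 of 5 transcription genes were at least 1.5-fold higher, and 1 transcription gene was lower. None of the 24 S phase genes passed 1.5-fold. Without the granulocyte class the counts were 11 of 16 kinetochore, 12 of 16 spindle motor and tubulin, 5 of 11 condensin and cohesin, 2 of 8 entry switch, 1 of 11 anaphase and exit, 2 of 5 transcription and 9 of 24 S phase genes, and none was lower. Over all cells, with the class included, Cdc25b stood at 10.6 against 3.57 CPM in this comparison (ratio 2.96). Against Flt3+ HSA+, the Flt3- Ly6d+ sort had lower levels by 1.5-fold or more for 15 of 16 kinetochore, 16 of 18 spindle motor and tubulin, 9 of 10 entry switch, 8 of 11 condensin and cohesin, 5 of 7 transcription and 4 of 12 anaphase and exit genes, and for 15 of 24 S phase genes. In the control, over the mean of the gated sorts, 5 of 16 kinetochore, 4 of 11 condensin and cohesin, 4 of 7 transcription, 2 of 18 spindle motor and tubulin, 1 of 10 entry switch and 1 of 12 anaphase and exit genes were higher, as were 5 of 24 S phase genes. E2f2, an activator of S phase genes, had a ratio of 2.63 in the control.

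The genes outside the list whose counts went most closely with the 40 were found among 5739 genes with a UMI in at least 5% of cells, over the 1176 thinned Flt3+ HSA+ cells, by Pearson's r of log counts with the members' sum. All genes in such a correlation share their cells and the depth of each cell, so r is a description and carries no p. Hmgb2, a chromatin protein, had the highest r (0.79), followed by the histone variant H2afx (0.70), the tubulins Tubb4b (0.69), Tubb5 (0.65) and Tuba1b (0.65), the Cdk subunit Cks2 (0.63) and the histone variant H2afz (0.60). Ube2s (0.58), another ubiquitin carrier of the anaphase complex, Hist1h2ap (0.54), Hist1h1b (0.54), Hmgb1 (0.52) and the condensin subunit Smc4 (0.49) completed the 12. Hmgb2 was at 1294 CPM in Flt3+ Ly6d- HSA-, 1745 in Flt3+ HSA+, 645 in Flt3- Ly6d- HSA-, 654 in Flt3- Ly6d+ and 1405 in the control. H2afx was at 309 CPM, 556, 135, 176 and 376 in the same order, which is the order of the members' sum. Among the members themselves, each gene's r with the sum of the others had a median of 0.41 in these cells, highest for Ube2c (0.71) and Top2a (0.70) and lowest for Anln (0.17) and Kif23 (0.21). The closest of the 780 pairs of members was Cenpa with Ube2c (0.66).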

How the data were processed

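Single-cell RNA of 5 sorted thymus populations, each with its own hashtag antibody, was measured in 1 pooled droplet library (10x Chromium 3' v3). The deposited matrix holds counts (UMIs per gene and cell, whole numbers, not normalized) made by the authors with Cell Ranger 3.0 on mm10, per the submitters' processing notes. The labels state neither earlier filters nor how barcodes were assigned to hashtags. The deposited assignment (7948 cells) was kept, and it was the most abundant hashtag in 100% of them. The 345 unassigned barcodes entered no comparison.

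UMIs were summed per population and scaled to CPM, with exact Poisson intervals. Intervals of ratios (95%) come from the exact binomial share of both counts, or a log-normal approximation for the control. Shares carry exact Clopper-Pearson intervals. With 1 sort per population no test was run. A gene was counted at a ratio of 1.5 or more with at least 5 CPM in the higher population. Cells were thinned to 3000 UMIs (seed 20). Cells were not clustered, and doublets with 1 hashtag were not called. The interval code was tested on simulated data.

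The 40 members and all lists were chosen with earlier results of these data known. Besides the members, the text names the 12 genes closest to their sum, genes with the highest or lowest ratio of each further list, gate genes and cell type markers. TMM (edgeR 4.0.16) and DESeq2 1.42.0 size factors, other weightings, cell filters and thresholds were tried. Python 3.11.15, numpy 2.4.6, scipy 1.17.1 and pandas 2.3.3 were used.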

Additional observations from a re-analysis of the deposited data

Results flagged for a closer look

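The barcodes that the authors assigned to no population were used in no comparison. Of 341 with at least 3000 UMIs, 152 (44.6%, 95% exact binomial interval 39.2 to 50.02) held at least 5 UMIs of the 40 G2 and mitosis genes among 3000, above the 31.9% of the control. They had a median of 29414 UMIs, and 313 of the 345 carried a second hashtag at 20% or more of their hashtag counts. The share was 44.4% of those 313 and 46.4% (27.5 to 66.1) of the other 28 with enough UMIs.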

How the results depend on the processing

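No paired analysis was possible because each population is 1 sort, and for the same reason no replicate could be left out. The count of members at 1.5-fold stayed within 1.5 times of the reported one in 51 of 60 alternatives. Among these was a filter on hashtag purity that could not change any value. The exceptions were these. For the control, the count of 8 became 1 with equal weight per cell (3.67% of all genes), 2 with thinning to 3000 UMIs (4.32%), 14 without the granulocyte class (4.07%) and 0 at a ratio of 2 or more (1.39%). For Flt3- Ly6d+ over Flt3- Ly6d- HSA-, the count of 15 became 5 without the 5% deepest cells, 30 without the granulocyte class, 8 with 20 CPM and 5% of cells as the minimum (0.809% of all genes) and 5 at a ratio of 2 or more (0.36%). For Flt3+ HSA+ over Flt3+ Ly6d- HSA-, 37 became 7 at a ratio of 2 or more. The last of each follows from the higher threshold. Between the Flt3- sorts, the minimum of 20 CPM and 5% of cells left 22 members to be counted, against 39 in the reported count. The cause of the other changes was not tested. Of 45 alternatives for the summed ratio 16 lay within its counting interval, 29 moved beyond it and none changed direction. The share of high cells stayed within its interval in 21 of 45, and ran from 4.31% to 15.1% in Flt3- Ly6d- HSA- and from 43.5% to 63.7% in Flt3+ HSA+. The late over early ratio of Flt3- Ly6d+ turned to 1.07 without the 5% deepest cells, and that of Flt3- Ly6d- HSA- to 0.866 without Cenpa, an alternative chosen after seeing the data; 21 of 30 alternatives for that ratio lay within its interval. The shallower Flt3- sorts lost 45 and 21 cells to thinning at 3000 UMIs. Single ratios were recomputed in full for 12 members, with 394 of 540 within their intervals. Between the Flt3- sorts 5 members changed sides of a ratio of 1 with equal weight per cell, 4 with thinning, 8 without the 5% deepest cells and 3 without the granulocyte class. The filter on hashtag purity left out no cell, so its values counted as unchanged in every tally given here.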
